A study of Gallus gallus with 4 samples.

Results

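Collagens are proteins of 3 polypeptide chains wound into a triple helix, and each chain is the product of its own gene. Fibrillar chains build the load-bearing fibrils of the dermis, and FACIT chains (fibril-associated collagens with interrupted triple helices) sit on the surface of those fibrils. Other chains form the sheet of the basement membrane under an epithelium, fine beaded filaments around cells, or proteins that cross the cell membrane. In the feather follicle, the dermal papilla is the mesenchymal cluster at the follicle base, separated by a basement membrane from the epithelium that makes the feather.

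The genes described are all those listed in the expression table under a name made of COL, a number, A and a number, the form used for collagen chain genes. There were 36 such genes among the 15386 in the table. All 36 are also named in the chicken RefSeq gene table, which lists 41 chains. The expression table lists no gene under the names COL1A1, COL6A6, COL9A1, COL26A1 or COL27A1, so these chains were not analysed here. RNA came from White Leghorn chickens, from untreated dermal papilla complexes of dorsal feathers in the growing stage, with 2 libraries from the anterior side of the papilla and 2 from the posterior side. No transgene, allele or agent is named for either group, and neither the age of the birds nor the number of birds behind a library is given. All p-values thus rest on the spread between libraries, which may be technical. Values are RPKM (reads per length of transcript and per depth of library), so levels of different chains are set side by side here. Such comparisons, shares and ratios depend on the gene models and on the counting of reads, which is not stated.

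The libraries were of similar depth apart from posterior library 1, whose depth relative to anterior library 1 was 77.0% as read from the steps between low values, against 99.7% to 100% in the others. Posterior library 1 also stood apart in content. Summed RPKM of 8 smooth muscle markers was 3955 there and 204 to 286 in the other libraries, and the 12 dermal papilla markers summed to 145 RPKM against 264 to 291 RPKM. The papilla list did not move as one: of its 10 tested members 4 were at least 2-fold below every other library there, while FGF7 was at 18.9 RPKM against 4.92 to 6.10 RPKM and FGF10 at 11.1 RPKM against 2.59 to 9.05 RPKM. CORIN, also of this list, was low in both posterior libraries, at 0.308 and 0.562 RPKM. It was at 6.86 and 2.13 RPKM in the anterior libraries (limma adjusted p = 0.964). In a check of the tissue label, PDGFRA, a receptor gene of mesenchymal cells, was at 36.9 to 43.3 RPKM in every library, and the papilla signal gene WNT5A at 17.6 RPKM in posterior library 1 and 66.5 to 75.6 RPKM elsewhere. SOX2, a papilla marker in mouse hair, was at most 0.163 RPKM. Epithelial keratins were present too, with KRT5 at 182 to 796 RPKM, and so were endothelial genes, with VWF at 28.2 to 30.9 RPKM. In such bulk tissue, fewer cells of a type and less RNA per cell cannot be told apart. Because of posterior library 1, the differences of collagen chains that the text turns on are given with and without it.

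Collagen transcripts were dominated by a few fibrillar and beaded filament chains. COL1A2, the second chain of type I collagen, was the most abundant of the listed chains by mean. It was at 389 to 831 RPKM, above at least 99.1% of genes in every library. In posterior library 2 COL3A1 was higher, at 630 RPKM against 594 RPKM for COL1A2. Of the 36 chains, 6 averaged at least 100 RPKM (COL1A2, COL3A1, COL6A2, COL6A1, COL17A1 and COL18A1) and 17 at least 10 RPKM. The filter for testing, at least 1 RPKM in at least 2 libraries, was passed by 25 chains. The 11 others lay between 0.00326 and 1.08 RPKM, and 9 of them stayed at or under 0.5 RPKM in every library. These included the cartilage chains COL2A1 (0.0359 to 0.122 RPKM), COL9A2 (0.143 to 0.331 RPKM) and COL10A1 (0.0112 to 0.0338 RPKM), and COL4A3 (0.137 to 0.273 RPKM) and COL4A4 (0.0203 to 0.110 RPKM), basement membrane chains of the kidney glomerulus. COL19A1, COL20A1, COL22A1 and COL24A1 were the other 4, and COL9A3 and COL15A1 reached 0.977 and 1.08 RPKM.

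**Figure D1:**
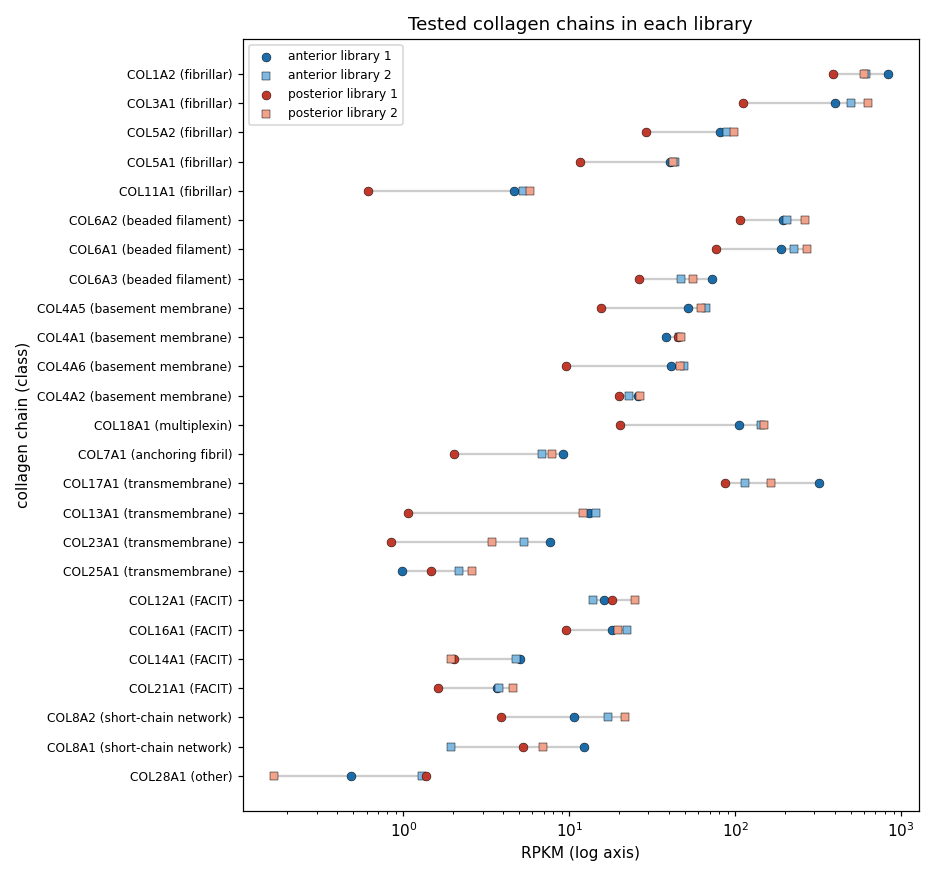
RPKM of the 25 tested collagen chains on a log axis, 1 point per library and grouped by class. Posterior library 1 is the lowest point for 19 of the 25 chains, and not for COL4A1, COL8A1, COL12A1, COL14A1, COL25A1 and COL28A1.

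The summed RPKM of all 36 chains was 2492 and 2269 in anterior libraries 1 and 2, and 997 and 2562 in posterior libraries 1 and 2. Posterior library 1 was thus the low one, with the mean of the other libraries 2.45 times as high, while posterior library 2 was above both anterior libraries. The sides overlapped in this sum. The share of fibrillar chains moved much less than the total. Fibrillar chains made up 54.4% and 55.3% of collagen RPKM in the anterior libraries and 54.4% and 53.5% in the posterior ones, a mean of 54.8% ± 0.611 against 53.9% ± 0.631 (SD, n = 2 each). Within this class, COL1A2 held 33.3% and 27.1% of collagen RPKM in the anterior against 39.0% and 23.2% in the posterior libraries. COL3A1 held 16.0% and 22.1% against 11.2% and 24.6%, the opposite order of libraries. The steady share of the class was thus a sum of chains whose own shares moved in opposite directions. Beaded filament chains made up 18.3% and 21.1% against 21.0% and 22.9%, and basement membrane chains 6.33% and 8.11% against 9.04% and 7.13%. FACIT chains had shares of 1.76% and 2.03% against 3.22% and 2.04%. The higher anterior and the lower posterior share were nearly equal. Multiplexin chains held 4.26% and 6.30% against 2.13% and 5.87%, so that this class was lowest in posterior library 1 in share as well as in sum. Transmembrane chains had the widest range in percentage points, at 13.7% and 5.96% in the anterior libraries against 9% and 7.15%, and COL17A1 was most of this class. COL1A1 is not part of these sums. With 2 libraries against 2, an exact permutation test of a single value cannot give a two-sided p below 0.333, so shares and ratios are given without a test.

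**Figure D2:**
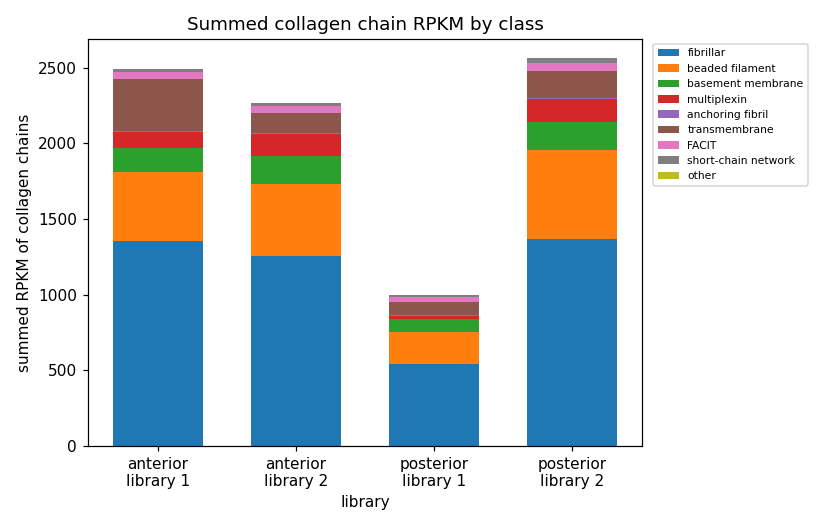
Summed RPKM of the collagen chains in each library, stacked by class. The bar of posterior library 1 reaches 997 RPKM and the other bars 2269 to 2562 RPKM, with fibrillar chains at 53.5% to 55.3% of every bar.

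The comparison of the anterior with the posterior side asked which genes differ along this axis of the papilla. No collagen chain passed the limma test at an adjusted p under 0.05, and 0 of the 10939 tested genes did (0%). At an unadjusted limma p under 0.05 there were 2 of the 25 chains, COL14A1 and COL23A1, against 103 of all tested genes (0.942%). Differences below are of log2(RPKM + 1), anterior minus posterior, which understates the change of low genes. They were above 0 for 21 of the 25 chains, against 64.6% of all tested genes, with a median of 0.59 against 0.11. Without posterior library 1, 9 of the 25 were above 0, against 55.8% of all tested genes, and the median was -0.11 against 0.023. Both anterior libraries were above both posterior libraries for 4 chains (COL1A2, COL13A1, COL14A1 and COL23A1), or 16.0%, where 18.9% of all tested genes showed this. The reverse held for COL12A1 alone, 4% against 7.25%. Both shares are close to those of all tested genes, so they show nothing particular to collagens.

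**Figure D3:**
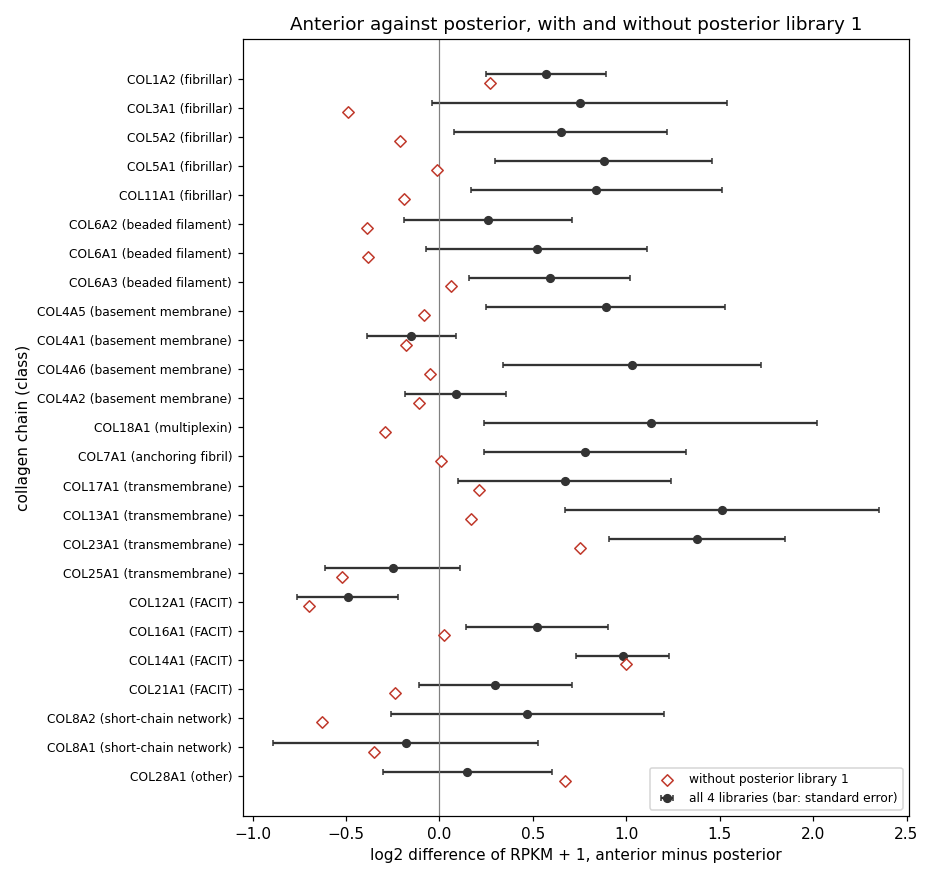
Log2 difference of RPKM + 1, anterior minus posterior, for the 25 tested chains; filled points with standard error bars use all 4 libraries and open diamonds leave out posterior library 1. COL14A1 stays at 1 without that library, COL12A1 is at -0.70, and 12 chains cross from above to below 0.

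Posterior library 1 was the lowest of the 4 libraries for 19 of the 25 chains (54.5% of all tested genes). It was at least 2-fold below every other library for 13 chains, where 9.99% of all tested genes were. After median ratio scaling the numbers were 12 chains and 5.38% of genes, and after quantile normalization 12 chains and 4.24%. No chain was at least 2-fold above the rest in that library, where 2.62% of all tested genes were. As given above, the smooth muscle marker sum was highest and the papilla marker sum lowest in posterior library 1. Their part in this pattern was not tested. With posterior library 2 left out, posterior library 1 alone stood for its side. The median difference of the chains was then 1.13, against 0.22 for all tested genes. With posterior library 1 left out, these medians were -0.11 and 0.023, as given above.

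Among fibrillar chains, COL1A2 measured 831 and 614 RPKM on the anterior side against 389 and 594 RPKM on the posterior side. The sides did not overlap, but the values of anterior library 2 and posterior library 2 were close. The log2 difference was 0.57 with a standard error of 0.32 (limma adjusted p = 0.964), and 0.27 without posterior library 1. COL3A1, the chain of type III collagen that is mixed into fibrils of soft tissue, measured 399 and 501 RPKM against 111 and 630 RPKM. Posterior library 2 held its highest value and posterior library 1 its lowest, so the difference turned from 0.75 to -0.49 when posterior library 1 was left out. Within a library, COL3A1 per COL1A2 was 0.480 and 0.816 in the anterior and 0.286 and 1.06 in the posterior libraries, a spread within each side wider than the gap between them.

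Type V chains, which start fibrils and limit their width, were likewise lowest in posterior library 1, at a lower level. COL5A1 measured 40.3 and 43.4 RPKM in the anterior libraries against 11.6 and 42.2 RPKM, and COL5A2 80.5 and 89.7 RPKM against 29.1 and 98.5 RPKM. Apart from posterior library 1, each stayed within a narrow range. COL5A1 per COL5A2 was 0.5 and 0.484 in the anterior and 0.398 and 0.428 in the posterior libraries, so this ratio did not overlap between the sides. It was chosen after its values were seen, and how often ratios of other gene pairs separate was not counted. COL11A1, a related chain best known from cartilage, measured 4.61 and 5.27 RPKM against 0.610 and 5.77 RPKM. Its mean in the other 3 libraries was 8.54 times its value in posterior library 1. COL2A1, the main cartilage fibril chain, did not pass the filter, as given above.

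Among the tested chains, the FACIT chain COL14A1 had the difference that moved least when a library was left out. COL14A1, whose product binds fibrils of dermis and tendon, measured 5.03 and 4.74 RPKM on the anterior side against 2.02 and 1.94 RPKM on the posterior side. The means were 4.88 ± 0.204 and 1.98 ± 0.0584 RPKM (SD, n = 2 each), 2.47-fold apart, and both posterior libraries were low. As a share of collagen RPKM, COL14A1 held 0.202% and 0.209% in the anterior libraries against 0.203% and 0.0756% in the posterior ones. The sides thus overlapped in share, and only posterior library 2 was low. The log2 difference was 0.98 with a standard error of 0.25 and an unadjusted limma p of 0.00882, and the gene did not pass over all genes (limma adjusted p = 0.964). The log2 difference lay between 0.95 and 1.02 whichever library was left out. This narrow range follows from the close values within each side, so it adds nothing to them. How many of all tested genes had such a range was not counted.

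COL12A1, the FACIT chain closest to COL14A1 in function, went the other way, at 16.1 and 13.8 RPKM on the anterior side against 18.2 and 24.9 RPKM on the posterior side. Its sides did not overlap, though anterior library 1 and posterior library 1 were close. The difference was -0.49 with a standard error of 0.27 (limma adjusted p = 0.964), and -0.70 without posterior library 1. COL14A1 per COL12A1 was 0.312 and 0.343 in the anterior and 0.111 and 0.0778 in the posterior libraries. COL12A1 per COL1A2 was 0.0194 and 0.0225 in the anterior and 0.0468 and 0.0419 in the posterior libraries. Since the chains in these ratios already did not overlap between the sides, in opposite directions, that the ratios separate the sides adds nothing to the levels. Their size does not depend on scaling between libraries. COL16A1, found near basement membranes and fine fibrils, measured 18.1 and 22.3 RPKM against 9.51 and 19.7 RPKM. COL21A1 measured 3.67 and 3.77 RPKM against 1.62 and 4.57 RPKM. For both, posterior library 2 was close to the anterior libraries.

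**Figure D4:**
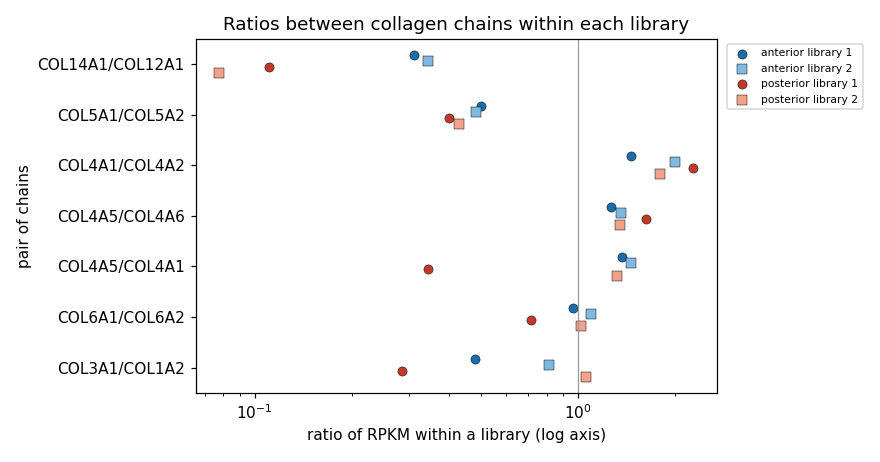
Ratio of RPKM between pairs of collagen chains within each library, on a log axis with a line at 1. COL14A1 per COL12A1 is 0.312 and 0.343 in anterior and 0.111 and 0.0778 in posterior libraries, while COL4A5 per COL4A1 is low in posterior library 1 only, at 0.344 against 1.32 to 1.46.

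Basement membrane chains split into pairs. COL4A1 and COL4A2 encode the type IV chains present in nearly all basement membranes, including those of vessels, and the genes lie next to each other. COL4A1 measured 38.1 and 45.6 RPKM on the anterior side against 45.1 and 47.3 RPKM on the posterior side, and COL4A2 26.1 and 22.9 RPKM against 19.8 and 26.5 RPKM. Their differences of -0.15 and 0.088, with standard errors of 0.24 and 0.27, were smaller than their errors (-0.18 and -0.11 without posterior library 1), and posterior library 1 did not stand apart in either. COL4A5 and COL4A6, also neighbouring genes, encode chains of the basement membrane under skin epithelium and around smooth muscle. COL4A5 measured 52.2 and 66.5 RPKM against 15.5 and 62.4 RPKM, and COL4A6 41.0 and 48.8 RPKM against 9.57 and 46.3 RPKM. Both were low in posterior library 1 alone, and their differences went from 0.89 and 1.03 to -0.081 and -0.049 without it.

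The ratio of COL4A5 to COL4A6 was 1.27 to 1.36 outside posterior library 1 and 1.62 in it, so both chains were low there by similar factors. COL4A5 per COL4A1 was instead 1.32 to 1.46 outside that library and 0.344 in it. The endothelial marker VWF varied little, as given above, and the endothelial markers PECAM1 and CDH5 were at 70.1 and 45.5 RPKM in posterior library 1 against 33.5 to 40.5 and 28.3 to 31.5 RPKM elsewhere. The 8 endothelial markers summed to 185 RPKM there against 147 to 155 RPKM, but did not move as one, since KDR was at 2.42 RPKM there against 4.54 to 5.38 RPKM and TIE1 at 3.47 RPKM against 7.09 to 8.35 RPKM. Whether vessel content has a part in the COL4A1 level was not tested. COL18A1, the multiplexin chain of basement membranes whose end fragment is endostatin, measured 105 and 143 RPKM on the anterior side against 20.2 and 150 RPKM on the posterior side. The mean of the other 3 libraries was 6.57 times its value in posterior library 1, and its difference of 1.13 became -0.29 without that library. The related chain COL15A1 stayed under the filter and was highest in posterior library 1, at 1.08 RPKM against 0.371 to 0.693 RPKM.

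Of the beaded filament chains of type VI collagen, which surround mesenchymal cells, COL6A1 and COL6A2 were near one another in level and COL6A3 was lower. COL6A1 measured 188 and 227 RPKM on the anterior side against 76.4 and 269 RPKM on the posterior side. COL6A2 measured 195 and 206 RPKM against 107 and 262 RPKM. For both chains posterior library 1 was lowest and posterior library 2 highest, so the differences of 0.52 and 0.26 turned to -0.38 and -0.39 without posterior library 1. COL6A1 per COL6A2, neighbouring genes whose products enter the same trimer, was 0.967 to 1.10 in the other libraries and 0.717 in posterior library 1. COL6A3, the large partner in that trimer, measured 72.1 and 47.3 RPKM against 26.2 and 55.9 RPKM. It was 0.208 to 0.383 of COL6A1.

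Transmembrane chains and the anchoring fibril chain included the products of the epithelial side of the junction. COL17A1, a hemidesmosome protein of basal keratinocytes, measured 320 and 114 RPKM on the anterior side against 86.3 and 165 RPKM on the posterior side. Here anterior library 1 stood highest and the sides overlapped. The difference of 0.67 (standard error 0.57) was -0.073 without anterior library 1, 1.41 without anterior library 2 and 0.21 without posterior library 1. The summed level of the 11 epithelial markers was also highest in anterior library 1, at 3303 and 1356 RPKM on the anterior side against 1840 and 1554 RPKM on the posterior side, and KRT5, a keratin of the same basal cells, measured 796 and 216 RPKM against 182 and 266 RPKM. In posterior library 1 the sum was not the lowest, but COL17A1 and KRT5 were, along with CDH1, TP63, DSP, PKP1 and SHH. SHH was at 2.24 RPKM there against 17.5 to 23.3 RPKM elsewhere. KRT14, KRT15, KRT75, CLDN1 and EPCAM were not lowest there, with EPCAM at 172 RPKM against 88.9 to 134 RPKM. The part of these markers in the COL17A1 level was not tested. COL7A1, the chain of the anchoring fibrils that tie the basement membrane to the dermis, measured 9.14 and 6.82 RPKM against 2.03 and 7.85 RPKM, and its difference of 0.78 was 0.010 without posterior library 1.

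COL13A1, a membrane collagen of cell adhesion sites, had the widest gap of any tested chain between posterior library 1 and the rest. It measured 13.2 and 14.4 RPKM on the anterior side against 1.06 and 12.1 RPKM on the posterior side, so the other 3 libraries averaged 12.5 times posterior library 1. The difference of 1.51 (standard error 0.84) was 0.17 without that library. The sides did not overlap, but posterior library 2 was close to the anterior libraries. COL23A1, another membrane collagen, measured 7.66 and 5.31 RPKM against 0.840 and 3.40 RPKM. Both posterior libraries were below both anterior ones. The difference was 1.38 with a standard error of 0.47 and an unadjusted limma p of 0.0293 (limma adjusted p = 0.964), and it was 0.75 without posterior library 1. COL25A1, a membrane collagen known from neurons, was low and overlapped, at 0.977 and 2.15 RPKM against 1.47 and 2.58 RPKM.

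Short-chain network collagens differed within sides more than between them. COL8A1, a chain of vessel walls and of the cornea, measured 12.3 and 1.93 RPKM in the anterior libraries, 6.37-fold apart, and 5.26 and 6.95 RPKM in the posterior libraries. COL8A2 measured 10.7 and 17.2 RPKM against 3.88 and 21.7 RPKM. The pair thus did not share an order of libraries, since COL8A1 was lowest in anterior library 2 and COL8A2 in posterior library 1. COL28A1 measured 0.485 and 1.30 RPKM against 1.37 and 0.165 RPKM, close to the filter.

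Genes that modify, cross-link or bind collagen were read from 2 lists. Of 35 genes for modification and processing, 31 were found and 28 tested, and none passed limma at an adjusted p under 0.05. The differences were above 0 for 22 and below 0 for 6, beside 64.6% of all tested genes above 0. The median was 0.36, and 0.057 without posterior library 1, against 0.11 and 0.023 for all tested genes. The most abundant were the collagen chaperone gene SERPINH1, at 356 and 225 RPKM on the anterior side against 241 and 272 RPKM on the posterior side, the prolyl isomerase PPIB, at 325 and 332 RPKM against 149 and 272 RPKM, and P4HB, a subunit of prolyl 4-hydroxylase, at 242 and 207 RPKM against 175 and 241 RPKM. LOXL1, an enzyme that cross-links elastin, was the fourth at 54.2 and 59.9 RPKM against 27.7 and 51.6 RPKM. SERPINH1 and P4HB overlapped between the sides, and PPIB and LOXL1 did not.

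The smallest unadjusted p in that list belonged to LOX, the collagen and elastin cross-linking enzyme, with a difference of 1.06 and a limma p of 0.0302 (adjusted p = 0.964), and a difference of 0.59 without posterior library 1. PPIB followed with a difference of 0.70, and 0.27 without that library. LEPREL4, which forms a complex for lysine hydroxylation, measured 18.5 and 13.9 RPKM on the anterior side against 7.75 and 12.5 RPKM on the posterior side. COLGALT1, which adds galactose to collagen hydroxylysine, measured 16.7 and 18.2 RPKM against 8.01 and 14.2 RPKM. In all 4 genes both posterior libraries were below both anterior ones and posterior library 1 was the lowest. These 4 were named for having the smallest p of the list, a choice that favours sides that do not overlap. Over the 28 tested genes of the list, 8 had both anterior libraries higher and 2 both posterior libraries higher, beside 18.9% and 7.25% of all tested genes. The list was not uniform, since PLOD2, a lysyl hydroxylase of the collagen telopeptide, measured 10.4 and 10 RPKM against 20.7 and 11.9 RPKM.

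Of 13 collagen receptor genes, 8 were found and tested, and none passed limma at an adjusted p under 0.05. The differences were above 0 for 5 and below 0 for 3, beside 64.6% of all tested genes above 0. The median was 0.27, and 0.019 without posterior library 1, against 0.11 and 0.023 for all tested genes. The most abundant was ITGB1, the beta subunit shared by collagen-binding integrins, at 164 and 130 RPKM on the anterior side against 242 and 140 RPKM on the posterior side. MRC2, an endocytic receptor that takes up collagen, measured 21.9 and 31.4 RPKM against 5.29 and 27.6 RPKM, and ITGA11, an integrin subunit of fibroblasts, 6.24 and 7.25 RPKM against 1.59 and 6.22 RPKM. Posterior library 1 was thus the highest for ITGB1 and the lowest for MRC2 and ITGA11. GPR56, an adhesion receptor that binds type III collagen in the mouse brain, measured 17.1 and 18.8 RPKM against 4.66 and 15.2 RPKM, and CD93, an endothelial receptor, 8.57 and 9.73 RPKM against 4.15 and 9.34 RPKM. ITGA2, a subunit of a receptor for type I collagen, measured 9.46 and 4.91 RPKM against 15.1 and 5.52 RPKM.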

How the data were processed

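Dissected tissue was extracted with Trizol and libraries were made with an Illumina TruSeq kit, according to the labels' protocols. The authors deposited RPKM for each gene, and the table's name points to Ensembl release 78. TopHat2, Partek and the build galGal4 are in the submitters' processing notes, with no settings, and the counting of reads is not stated. The RefSeq table is of another assembly, so it served for names and gene order only, and no positions or sequences are given.

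Read totals are unknown. For values under 0.3 RPKM, ratios to anterior library 1 were compared with ratios of whole numbers not above 5. After the best shift, 44.9% to 46.9% of genes lay within 0.002 on the natural log scale, against 0.722% to 0.826% at other shifts, and that shift gave the relative depth. Too few values were whole steps to rebuild counts. In any pair of libraries at most 1 gene had the same value above 0.

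For 10939 genes, those reaching 1 RPKM in 2 or more libraries, log2(RPKM + 1) was fitted with limma 3.58.1 in R 4.3.3 (eBayes with trend, two-sided, Benjamini-Hochberg over all tested genes, 2 residual degrees of freedom), after a test on simulated data. Python 3.11.15 and matplotlib 3.10.9 gave descriptions and plots. Alternatives were pseudocounts, filters, scalings, variance moderation, a replicate block and leaving out each library. The count of chains lowest in posterior library 1 under other scalings was added after seeing the data. The members and lists were chosen with earlier results of these data known. Values were named for the 12 most abundant chains, for chains with non-overlapping sides at least 1.5-fold apart, for chains with 1 library at least 2-fold from the rest, and for the 4 most abundant and 4 of smallest p of each partner list, plus LOX. COL4A2, COL12A1, COL16A1, COL25A1, COL28A1, PLOD2 and the chain ratios were chosen after their values were seen. No tested gene passed the threshold with all libraries kept, so no member of a marker list could be past it. The marker lists of chondrocytes, Schwann cells, leukocytes and tendon fibroblasts had summed RPKM of 133 to 169, 18.2 to 23.4, 303 to 362 and 2.25 to 2.95.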

Additional observations from a re-analysis of the deposited data

How the results depend on the processing

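With all 4 libraries kept, no setting made a collagen chain pass. The numbers 1 and 2 are shared between the sides in the column names only, and the deviations of same-numbered libraries correlated at 0.488 across genes, which with 2 pairs does not show pairing. With a replicate block, 2 of all genes and 0 chains passed. Leaving out each library in turn gave 0 to 226 genes and 0 to 8 chains past the threshold, 5 to 20 chains not overlapping with anterior higher, 2 to 12 with posterior higher, and a chain median of -0.11 to 1.13. With all libraries these were 0, 0, 4, 1 and 0.59. With 1 library left on a side, sides fail to overlap more often by order alone. The share of all genes without overlap was not counted in the runs without 1 library. The higher counts of chains without overlap there thus show nothing particular to collagens. In those runs 0 to 4 genes of the modification list passed, with a median of 0.057 to 0.63, and 0 to 2 receptor genes, with a median of 0.019 to 0.57. The low ends of the medians came from leaving out posterior library 1, and all calls from leaving out posterior library 2, where the lone posterior library is assumed to vary like the anterior ones.

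With no filter, 6 of 36 chains had both anterior libraries above both posterior ones and 3 the reverse. With median ratio scaling these counts were 4 and 2 of the 25 chains. The share of all genes was not counted in these settings, so the counts show nothing particular to collagens. Median ratio scaling moved the median of all genes by -0.12 on the log2 scale, and the chain median relative to all genes was 0.46 there and 0.48 as deposited. Without COL1A2, the mean share of fibrillar chains was 2.83 percentage points higher in the anterior libraries, against 0.90 with it. The sides overlapped in that share without COL1A2, with posterior library 1 the lowest and posterior library 2 the highest. COL4A2 was at -0.049 with median ratio scaling and COL28A1 at -0.0019 with quantile normalization, both on the other side of 0, and the cause was not tested. Over the runs without 1 library the log2 difference ranged from -0.24 to 0.85 for COL21A1, -0.11 to 0.29 for COL4A2, -0.081 to 1.86 for COL4A5, -0.049 to 2.11 for COL4A6, -0.38 to 1.42 for COL6A1, -0.39 to 0.90 for COL6A2, -0.19 to 1.88 for COL11A1, -0.49 to 2.00 for COL3A1, -0.011 to 1.76 for COL5A1 and -0.21 to 1.51 for COL5A2. It ranged from -0.29 to 2.55 for COL18A1, -0.36 to 0.67 for COL28A1, -1.27 to 0.91 for COL8A1, -0.63 to 1.58 for COL8A2, -0.073 to 1.41 for COL17A1 and -0.59 to 0.085 for COL25A1. The other 9 tested chains kept their direction in every setting run. Read totals are unknown, so chains under the filter cannot be placed against a counting limit.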
